A study of Mus musculus with 6 samples.

Results

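The genes described here belong to the amino acid response that is run by ATF4, a transcription factor of the bZIP family. They are 10 genes, Atf4, Asns, Ddit3, Trib3, Chac1, Psat1, Phgdh, Shmt2, Mthfd2 and Fgf21, and every probe set whose only annotated symbol is one of them was taken. That gave 23 probe sets of 10 genes, out of 34945 probe sets of 18193 genes with 1 symbol. Of the 23, 20 probe sets of 9 genes passed the filter on dim signals, which keeps probe sets whose mean over the 6 arrays lies above the 40th percentile. Fgf21 had 1 probe set, which did not pass, and Atf4 and Ddit3 each had 1 further probe set that did not pass. A pair of probe sets annotated to Phgdh together with a second gene was left out.

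Affymetrix arrays measured total RNA of whole mouse hearts in 3 groups of 2 arrays. The first group was the hearts of apoE-deficient mice of the B6 strain background, aged 8 months, that had received rosiglitazone at 30 mg per kg per day for 2 months from the age of 6 months. The labels describe these hearts as failing. The second group was apoE-deficient mice of the same age without the drug, and the third was untreated, non-transgenic B6 mice of that age. All animals ate a chow with added fat and cholesterol. Rosiglitazone is a thiazolidinedione, a ligand of PPARγ that is used against diabetes. ApoE deficiency, the loss of a lipoprotein ligand for hepatic uptake, raises blood cholesterol and was shared by the treated and untreated apoE-deficient groups. Nothing in the labels ties the 2 arrays of a group to different animals. The p-values therefore measure only the spread between arrays, which may be technical.

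ATF4 is the common output of the integrated stress response. Kinases that sense amino acid shortage (GCN2), unfolded proteins in the endoplasmic reticulum (PERK), viral RNA (PKR) or heme shortage (HRI) phosphorylate the initiation factor eIF2α, which slows general translation and lets ribosomes reach the Atf4 reading frame. ATF4 then drives genes of amino acid synthesis and uptake, tRNA charging and the mitochondrial folate pathway. In heart muscle the same set is known as a response to mitochondrial faults, and FGF21 is one of its secreted products. Because ATF4 is regulated largely by translation, its mRNA level is not a measure of its protein, and no protein was measured here.

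ATF4 binds with C/EBP partners to a composite element. The motif TGATGNAA (reverse complement TTNCATCA) was searched on both strands in 300 bases around the RefSeq start of each gene, 250 before and 50 after, in assembly GRCm38.p6. It was the single motif searched. All 10 genes had a promoter entry, and 4 of 10 held the motif (Asns, Trib3, Chac1 and Fgf21), against 4.51% of 27025 genes with a window. Among the lists described below, 5 of 12 cytosolic aminoacyl-tRNA synthetases (41.7%) and 5 of 25 other ATF4 targets (20%) held it. So did 1 of 20 genes of the XBP1 and ATF6 arms, and 0 of the upstream, folate, mitochondrial and FGF21 receptor lists. The 250 bases upstream of the start are printed for the 3 members with the motif before the start. The reason is that 2 of them, Asns and Chac1, were called in opposite directions in treated hearts. The capitals mark the motif. Sequences run 5′ to 3′ on the strand of the gene.
Asns: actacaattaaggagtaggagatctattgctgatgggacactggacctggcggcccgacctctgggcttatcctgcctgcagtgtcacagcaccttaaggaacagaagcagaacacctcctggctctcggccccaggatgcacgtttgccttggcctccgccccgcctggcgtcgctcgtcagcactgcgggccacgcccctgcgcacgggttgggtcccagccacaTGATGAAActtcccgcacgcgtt
Chac1: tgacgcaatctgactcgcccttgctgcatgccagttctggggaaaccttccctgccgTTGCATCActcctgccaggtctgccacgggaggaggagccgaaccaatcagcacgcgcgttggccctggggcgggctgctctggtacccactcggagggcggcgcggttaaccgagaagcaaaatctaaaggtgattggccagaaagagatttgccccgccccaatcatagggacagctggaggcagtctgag
Fgf21: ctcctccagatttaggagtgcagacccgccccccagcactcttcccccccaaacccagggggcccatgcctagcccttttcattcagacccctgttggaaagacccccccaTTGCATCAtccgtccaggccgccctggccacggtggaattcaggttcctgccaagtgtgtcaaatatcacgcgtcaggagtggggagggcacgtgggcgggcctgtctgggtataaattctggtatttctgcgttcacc
These windows are chr6:7693210-7693459 on the minus strand (Asns), chr2:119350992-119351241 on the plus strand (Chac1) and chr7:45615491-45615740 on the minus strand (Fgf21). The first base of the motif lay at -23 from the start in Asns, read on the strand of the gene, and at -193 in Chac1 and -139 in Fgf21, read on the opposite strand. In Trib3 it lay at 15 after the start. No match was found in the windows of Atf4, Ddit3, Psat1, Phgdh, Shmt2 and Mthfd2, which says only that these letters are not in those windows. A match is a description of the letters and no binding was measured.

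The deposited signals were not on a common scale. The mean signal after trimming 2% at each end was 341 and 263 for treated apoE-deficient hearts, 126 and 130.4 for untreated apoE-deficient hearts and 175 and 149 for B6 hearts, so brightness moved with group. Signals below are therefore quantile normalised, and differences are on the log2(signal + 11.1) scale. A probe set was called when its limma adjusted p (Benjamini-Hochberg over 27022 tested probe sets) was under 0.05. Within a group, the 2 arrays correlated at r = 0.981 (treated), 0.960 (untreated apoE-deficient) and 0.970 (B6) over all probe sets. As a check of the labels, Apoe averaged 6.23 ± 0.04 in treated apoE-deficient hearts, 5.77 ± 0.75 in untreated apoE-deficient hearts and 11.88 ± 0.04 in B6 hearts (log2 signal, mean ± SD, n = 2 arrays each).

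Markers of some cell types other than heart muscle were also higher in the treated hearts. The 4 white adipocyte markers on the array summed to a signal of 4158 to 4305 in treated hearts. The sum was 171 to 182 in untreated apoE-deficient and 229 to 251 in B6 hearts. Of the 3 tested, 2 (Adipoq and Cidec) rose in treated over untreated apoE-deficient hearts. The 7 lung and airway markers on the array summed to 14660 to 15490, 120 to 134 and 98.7 to 132 in the same order of groups. Of the 6 tested, 4 were higher (Scgb1a1, Scgb3a2, Cyp2f2 and Bpifa1). Brown adipocyte markers summed to 37280 to 38130, 27870 to 28260 and 26910 to 27420, with 4 of 6 higher (Ucp1, Cidea, Elovl3 and Otop1). This sum includes Cox7a1 and Cox8b, which were not called. The median log2 difference of the 6 was 2.5 in treated minus untreated apoE-deficient hearts, so the sum does not give the rise of the 4. Cardiomyocyte markers had 2 higher and 4 lower of 8. Lymphocyte markers summed to 1612 to 1889 in treated, 226 to 229 in untreated apoE-deficient and 202 to 238 in B6 hearts, with Ighm and Jchain higher of 5 tested, while the T cell markers Cd3e, Cd3d and Cd2 were not among those tested. The alveolar marker Sftpc read 63.1 and 61.7 in treated, 45.7 and 28.6 in untreated apoE-deficient and 38.3 and 22.3 in B6 hearts and was not called. Fibroblast markers had 5 of 6 higher in treated than in untreated apoE-deficient hearts. Other types did not rise as a set in that comparison. Macrophage markers had 1 higher (Csf1r) and 2 lower (Adgre1 and C1qb) of 6, and endothelial markers 2 higher and 1 lower of 4. The red blood cell marker Alas2 was lower. The 1 tested thymus marker and the 1 tested hepatocyte marker were not called. For every difference below that involves treated hearts, the part of these cell types was not tested. In whole-tissue RNA, fewer cells of a type and less RNA per cell cannot be told apart.

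Rosiglitazone-treated against untreated apoE-deficient hearts, the ATF4 genes moved in both directions. Asns was higher in treated hearts on both of its probe sets, whereas Atf4, Ddit3, Chac1 and Shmt2 had sets that were called lower. The brightest Shmt2 set was not called. Of 20 tested probe sets 2 were higher, 5 lower and 13 not called, against 19.8% of all tested probe sets called in either direction, 10% higher and 9.81% lower. The median difference of the 20 probe sets was -0.20, against -0.016 for all 27022. Taking the brightest probe set per gene, 1 gene was higher and 3 were lower of 9, against 23.7% of 13236 genes called (11.4% higher and 12.3% lower). The count of 7 called probe sets was 1 without untreated apoE-deficient replicate 1, 2 without treated replicate 1 and 3 without treated replicate 2, and the called set of Atf4 was the 1 that stayed in each. Without overlap between the arrays, 5 member probe sets were higher and 8 lower, against 28.6% and 31.4% of all tested probe sets.

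Atf4 and Ddit3 encode the transcription factors of the set. Atf4 (1448135_at) had signals of 794 and 866 in treated hearts, 1200 and 1300 in untreated apoE-deficient hearts and 850 and 806 in B6 hearts. The untreated apoE-deficient arrays were the high ones, and the treated and B6 arrays overlapped. The difference was -0.58 ± 0.07 (SE) between treated and untreated apoE-deficient hearts (limma, adjusted p = 0.000684), 0.59 ± 0.07 between untreated apoE-deficient and B6 hearts (adjusted p = 0.00259), and 0.002 ± 0.07 between treated and B6 hearts (adjusted p = 0.991). Without any one array the treated minus untreated value ran from -0.65 to -0.52. A second Atf4 probe set (1438992_x_at) did not show this pattern. It read 139 and 129 in treated, 108 and 108 in untreated apoE-deficient and 152 and 92.2 in B6 hearts, and its difference of 0.28 ± 0.22 between treated and untreated apoE-deficient hearts was not called (adjusted p = 0.422).

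Ddit3, which encodes CHOP, the factor that ATF4 induces under prolonged stress, followed the order of Atf4 with wider spread. Its probe set 1417516_at had signals of 303 and 387 in treated, 585 and 473 in untreated apoE-deficient and 381 and 404 in B6 hearts. Treated arrays lay below untreated apoE-deficient arrays without overlap, and the B6 arrays overlapped with the treated ones. The difference was -0.60 ± 0.14 for treated minus untreated apoE-deficient hearts (limma, adjusted p = 0.0139), 0.41 ± 0.14 for untreated apoE-deficient minus B6 hearts (adjusted p = 0.11) and -0.19 ± 0.14 for treated minus B6 hearts (adjusted p = 0.436). The first of these was not called without treated replicate 1 (-0.43) or without untreated replicate 1 (-0.45), nor with spike-in scaling (-0.35).

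Chac1 and Trib3 are downstream effectors. Chac1 breaks down glutathione, and Trib3 is a pseudokinase that binds ATF4 and Akt. Chac1 (1451382_at) had signals of 214 and 195 in treated, 260 and 291 in untreated apoE-deficient and 371 and 311 in B6 hearts. No array of 1 group overlapped with another, and the order of the 3 groups was treated lowest and B6 highest. Treated minus B6 was -0.71 ± 0.13 (limma, adjusted p = 0.00542), treated minus untreated apoE-deficient -0.41 ± 0.13 (adjusted p = 0.0487), and untreated apoE-deficient minus B6 -0.30 ± 0.13 (adjusted p = 0.205). The second of these sat at the threshold and was called in 1 of 9 other settings that put the arrays on a common scale, and it was not called without any one of the 4 arrays compared (-0.49 to -0.33). The call against B6 hearts was lost with spike-in scaling (-0.35, limma, adjusted p = 0.0816) and without the intensity trend (adjusted p = 0.0762). Trib3 was not called on either probe set. Its brighter one (1426065_a_at) read 70.5 and 75.5 in treated, 85.6 and 97.2 in untreated apoE-deficient and 87.5 and 99.0 in B6 hearts, a difference of -0.28 ± 0.19 for treated minus untreated apoE-deficient hearts (adjusted p = 0.357).

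Among the synthesis enzymes, Asns, which makes asparagine from aspartate and glutamine, was the member that rose. Its brighter probe set (1451095_at) had signals of 173 and 256 in treated, 116 and 122 in untreated apoE-deficient and 117 and 114 in B6 hearts. Both treated arrays were above all 4 others, and they differed most from each other. The difference was 0.77 ± 0.19 for treated minus untreated apoE-deficient hearts (limma, adjusted p = 0.0197), 0.81 ± 0.19 for treated minus B6 hearts (adjusted p = 0.0196) and 0.036 ± 0.19 for untreated apoE-deficient minus B6 hearts (adjusted p = 0.935). Without limma's intensity trend the first was not called (limma, adjusted p = 0.0873), nor was the value against B6 hearts (adjusted p = 0.11). Without treated replicate 2 the first was 0.51 and not called, and without untreated replicate 1 (0.74) or 2 (0.81) it was not called either. The call against B6 hearts was lost without treated replicate 2 (0.54), B6 replicate 1 (0.83) or B6 replicate 2 (0.79).

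The second Asns probe set (1433966_x_at) was more graded across the groups. It had signals of 109 and 124 in treated, 33.2 and 50.2 in untreated apoE-deficient and 9.45 and 15.9 in B6 hearts. The groups did not overlap, and the B6 arrays were below the signal of about 20.7 that the filter corresponds to. Treated minus untreated apoE-deficient was 1.29 ± 0.31 (limma, adjusted p = 0.018), treated minus B6 2.44 ± 0.31 (adjusted p = 0.000894) and untreated apoE-deficient minus B6 1.15 ± 0.31 (adjusted p = 0.0592). Because the B6 level is dim, the treated minus B6 value ran from 1.41 to 3.14 across 9 other settings that put the arrays on a common scale, and it was called in all 9. The treated minus untreated apoE-deficient value lost its call when treated replicate 1 (1.37), treated replicate 2 (1.2) or the first untreated apoE-deficient array (1.05) was left out.

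Of the serine and glycine enzymes, Shmt2 was the one called under quantile normalisation with all arrays. Shmt2, the mitochondrial serine hydroxymethyltransferase that yields glycine and one-carbon units, was lower in treated hearts. Its probe set 1426423_at read 271 and 272 in treated, 385 and 346 in untreated apoE-deficient and 314 and 358 in B6 hearts, and 1455985_x_at read 103 and 135, 198 and 199, and 119 and 157. Treated arrays were below untreated apoE-deficient arrays on both. The differences were -0.41 ± 0.11 and -0.70 ± 0.18 (limma, adjusted p = 0.0263 for each), and neither was called against B6 hearts. The other 2 Shmt2 probe sets, 1455084_x_at and 1434204_x_at, differed by -0.25 ± 0.09 and -0.20 ± 0.26 and were not called. The first of these is the brightest Shmt2 set, and its treated minus B6 difference was -0.015. Both called sets lost their call without the intensity trend (limma, adjusted p = 0.0976 for 1426423_at and 0.096 for 1455985_x_at). Of the called pair, 1426423_at was lost with trimmed-mean scaling (-0.31), array medians centred (-0.24) and spike-in scaling (-0.14), and 1455985_x_at with medians centred (-0.50) and spike-in scaling (-0.41). The call of 1426423_at was also lost when either treated array was left out (-0.41 without replicate 1 and -0.42 without replicate 2) and without the first untreated apoE-deficient array (-0.34). That of 1455985_x_at was lost without the first treated array (-0.53) and when either untreated apoE-deficient array was left out (-0.70 and -0.69).

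Psat1 and Phgdh catalyse adjacent steps from glycolysis to serine. Phgdh (1426658_x_at, its brightest set) read 223 and 327 in treated, 318 and 296 in untreated apoE-deficient and 242 and 226 in B6 hearts. The treated arrays spanned the untreated ones, and none of the 4 Phgdh probe sets was called in any of the 3 comparisons under quantile normalisation with all arrays. Their treated minus untreated differences were -0.18, 0.35, 0.97 and 0.72, with standard errors from 0.16 to 0.66. When 1 array was left out, the value of 0.97 (1454714_x_at) ran from -0.053 to 1.99 and that of 0.72 (1456584_x_at) from 0.17 to 1.27. The highest of the last range, without untreated apoE-deficient replicate 2, was called (limma, adjusted p = 0.025). With spike-in scaling 1426658_x_at was called in treated minus B6 hearts (0.54, adjusted p = 0.0291). For Psat1 the probe set 1451064_a_at read 65.5 and 77.2, 73.2 and 53.7, and 66.6 and 55.9 in the same order of groups. The groups overlapped, and neither Psat1 probe set was called.

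Mthfd2, the mitochondrial folate enzyme that oxidises methylene-tetrahydrofolate, read 65.3 and 63.4 in treated, 71.2 and 79.3 in untreated apoE-deficient and 50.5 and 74.4 in B6 hearts on 1419253_at. Its difference was -0.19 ± 0.24 for treated minus untreated apoE-deficient hearts (limma, adjusted p = 0.639), and its other probe set was not called. Fgf21, a secreted hormone, was dim on every array. Its signals were 14.8 and 12.1 in treated, 12.2 and 8.68 in untreated apoE-deficient and 5.03 and 25.1 in B6 hearts, and it was not tested. The untested probe sets of Atf4 and Ddit3 stayed between 4.96 and 24.8 on every array.

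**Figure D1:**
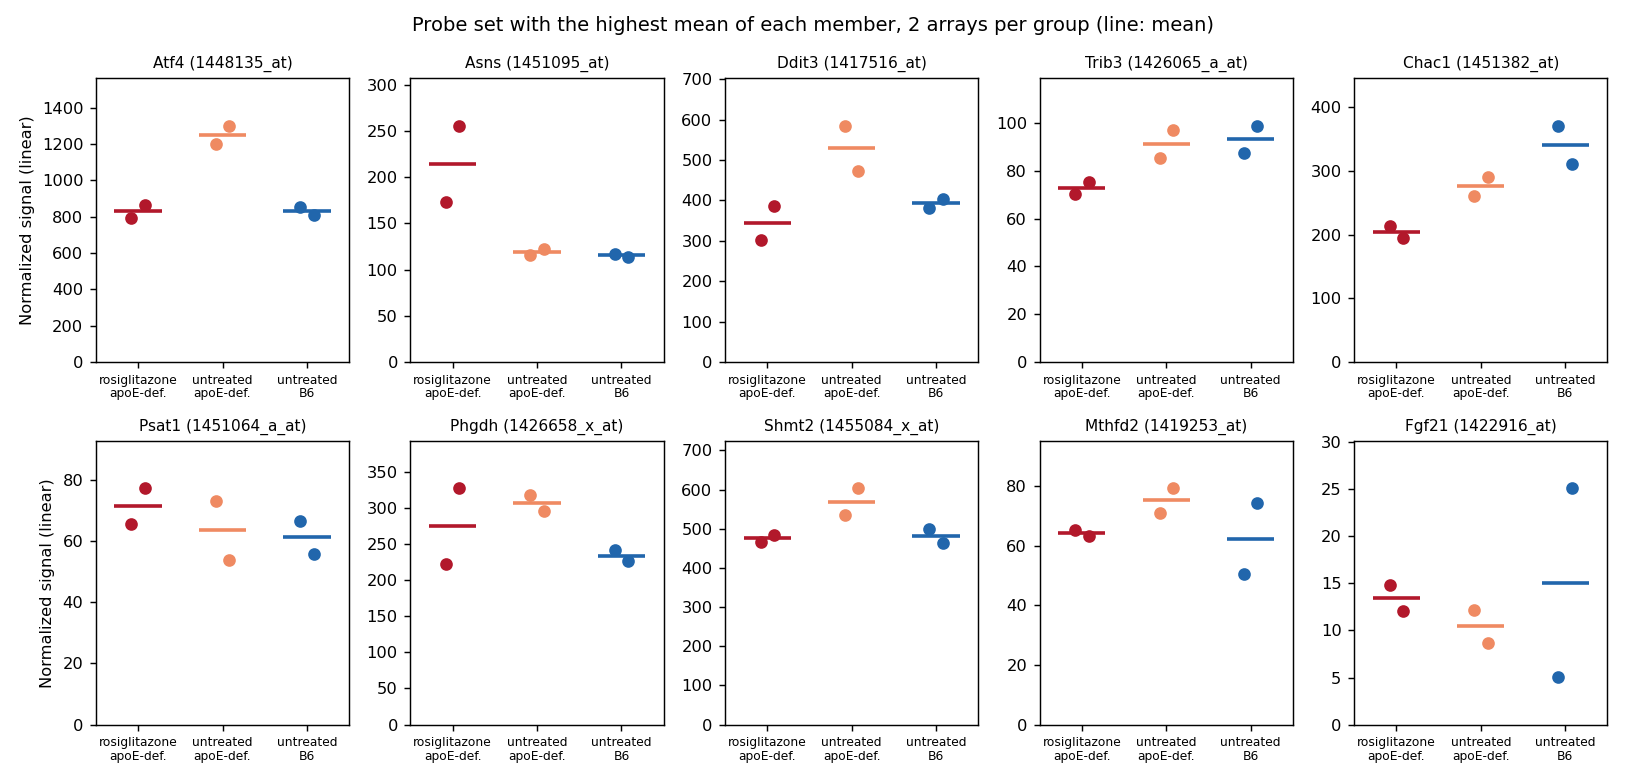
Quantile-normalised signal (linear axis from 0) of the brightest probe set of each of the 10 genes, by group. Points are the 2 arrays of treated apoE-deficient, untreated apoE-deficient and B6 hearts, and lines are their means. The Atf4 set 1448135_at was highest in untreated apoE-deficient hearts at 1200 and 1300, and the Asns set 1451095_at highest in treated hearts at 173 and 256.

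**Figure D2:**
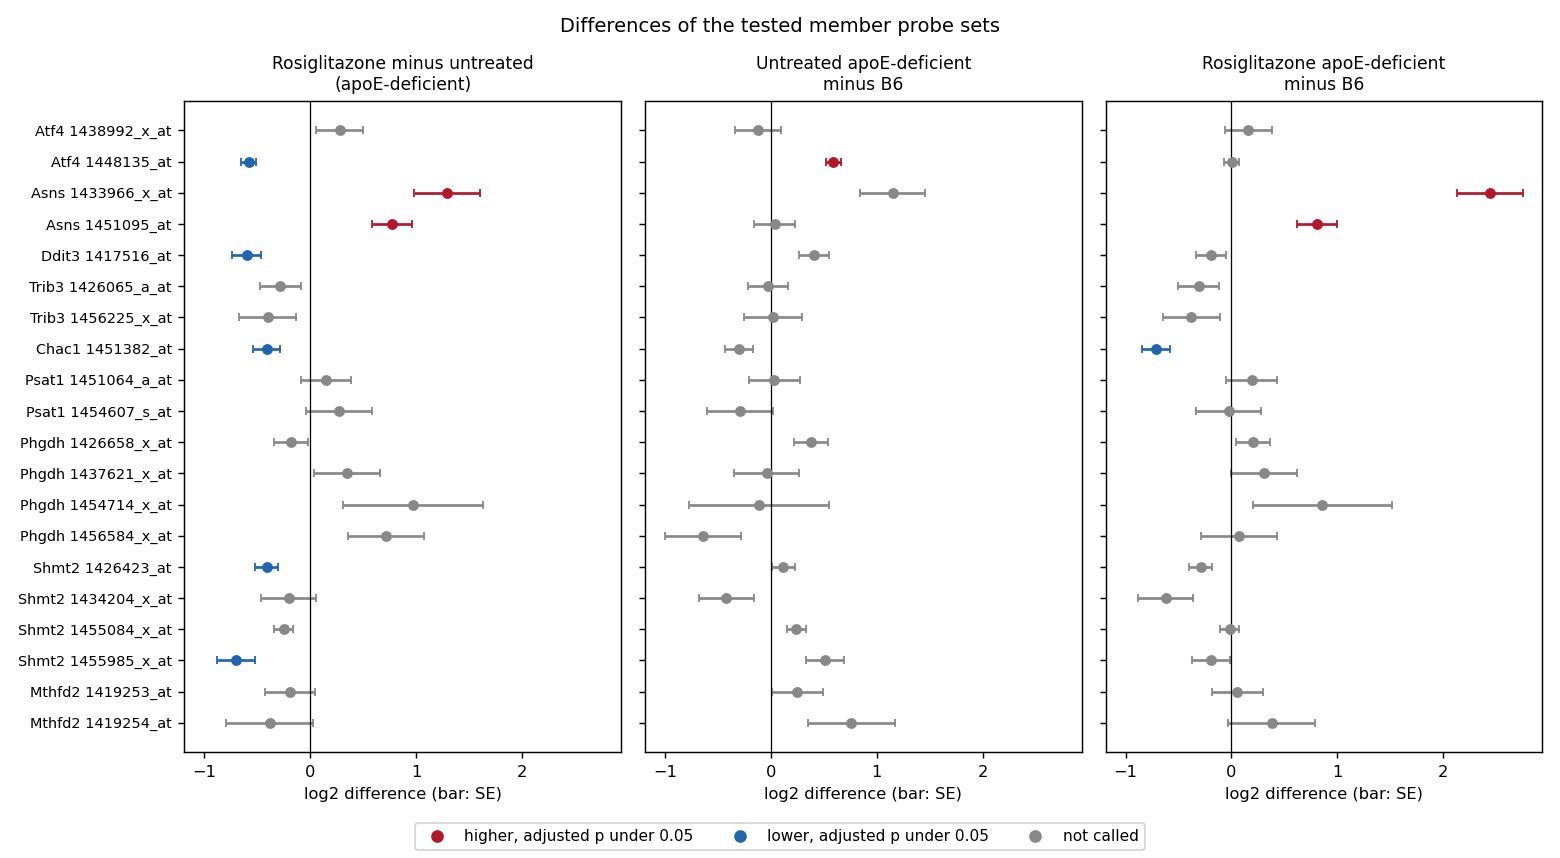
Log2 difference with its standard error for each tested member probe set in the 3 comparisons, with called sets marked. In treated minus untreated apoE-deficient hearts the 2 higher sets are both of Asns and the 5 lower ones are Atf4, Ddit3, Chac1 and Shmt2.

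Untreated apoE-deficient hearts compared with B6 hearts showed fewer calls. Under quantile normalisation the 1448135_at set of Atf4 was the single member called, 1 higher and 0 lower of 20. Of all tested probe sets 7.06% were called (3.17% higher and 3.9% lower). Asns 1433966_x_at was also called higher with trimmed-mean scaling (1.13), array medians centred (1.08) and spike-in scaling (1.2). Ddit3 1417516_at was called higher with spike-in scaling (0.52), where the median of all probe sets was 0.108. By genes the count was 1 higher and 0 lower of 9, against 8.51% called (3.85% higher and 4.66% lower). Without overlap, 6 member probe sets were higher and 3 lower, against 24.3% and 25.9% of all. The median member difference was 0.035, against -0.0064 for all. Macrophage markers moved with this comparison: their summed signal was 7025 to 7174 in untreated apoE-deficient and 5610 to 5735 in B6 hearts, with 4 higher and 1 lower of 6. Fibroblast markers had 3 of 6 lower, white adipocyte markers 2 of 3 lower (Adipoq and Cidec), and the red blood cell marker Alas2 was lower. The part of these cell types in the Atf4 value was not tested. Treated against B6 hearts, Asns rose on both sets and Chac1 fell, 2 higher and 1 lower of 20, against 15% of all probe sets called, with 7.46% higher and 7.58% lower. By genes it was 1 higher and 1 lower of 9, against 18.7% called (8.78% higher and 9.87% lower), and without overlap 3 member probe sets were higher and 4 lower, against 26.4% and 31.1%. The median member difference was 0.029, against -0.023 for all. The 3 comparisons share arrays, so a high level in untreated apoE-deficient hearts enters the first comparison with a minus sign and the second with a plus sign. The values of Atf4 and Ddit3 in the 3 comparisons above are to be read with that in mind.

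The calls for lower genes depended on scaling, and calls in both directions depended on the variance model. With spike-in scaling 3 of 20 member probe sets were called in treated minus untreated apoE-deficient hearts, 2 higher and 1 lower, and the 1 lower was Atf4. Under that scaling the median difference of all probe sets was 0.18, against -0.016 under quantile normalisation, and 79.6% of its calls were higher, against 50.5% under quantile normalisation. Atf4 kept its call in all 9 other settings that put the arrays on a common scale, from -0.60 to -0.42. With signals unscaled it turned to 0.61, a setting in which the median of all probe sets was 1.13. Without limma's intensity trend, 2 of 20 member probe sets were called in treated minus untreated apoE-deficient hearts, Atf4 1448135_at and Asns 1433966_x_at. In that model the Atf4 value for untreated apoE-deficient minus B6 hearts was not called (0.59, limma, adjusted p = 0.107).

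**Figure D3:**
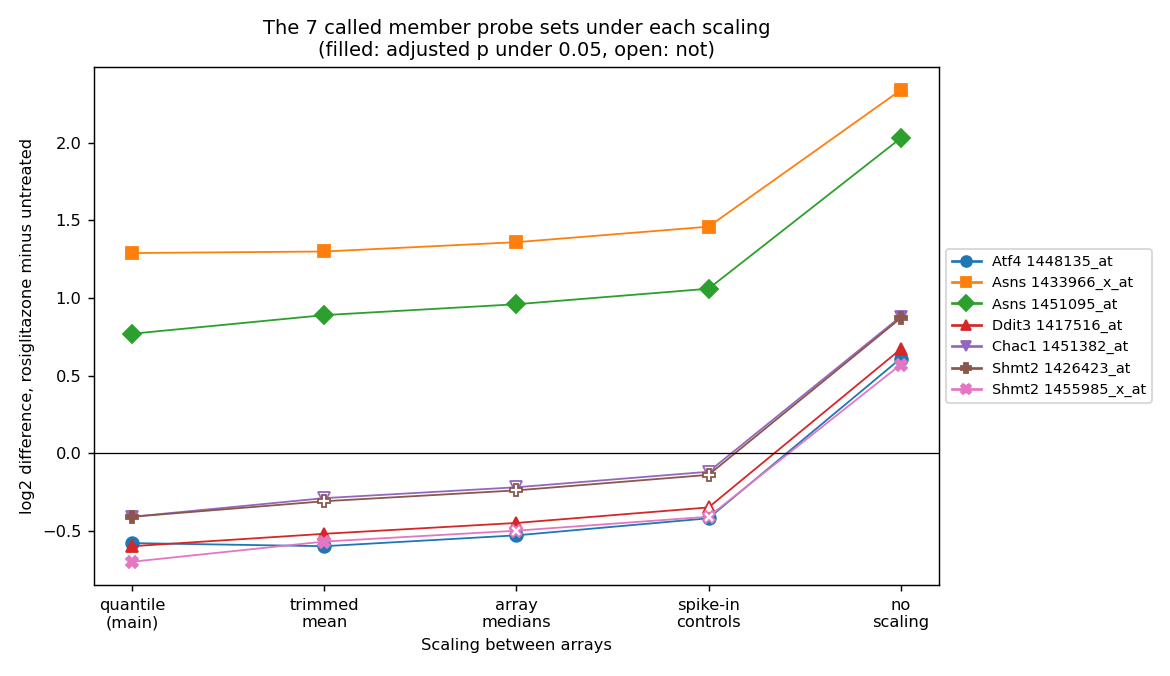
Log2 difference between treated and untreated apoE-deficient hearts for the called member probe sets under the alternative scalings of the arrays. Atf4 was -0.58 under quantile normalisation, and both Asns sets stayed above 0 in every scaling plotted.

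Other genes of the pathway were listed by role and read by their brightest tested probe set. The 31 tested genes among the other ATF4 targets had 4 higher and 11 lower in treated than in untreated apoE-deficient hearts, with a median of -0.16 against -0.034 for all 13236 genes and 11.4% higher and 12.3% lower among them. With spike-in scaling, where the median of all probe sets was 0.18, it had 8 higher and 7 lower and a median of 0.016. Without the intensity trend 2 were higher and 3 lower. In untreated apoE-deficient against B6 hearts 5 of the 31 were higher (Slc7a5, Atf3, Cebpb, Vldlr and Trib1). In that comparison 4 were lower (Slc7a1, Ddit4, Eif4ebp1 and Kdm7a), and the median was 0.086. Of all genes 3.85% were higher and 4.66% lower. There limma called 0 of 31 without the intensity trend, with 12 at an unadjusted p under 0.05. Atf3, a bZIP factor induced by many stresses, had signals of 91.2 and 119 in treated, 351 and 258 in untreated apoE-deficient and 116 and 114 in B6 hearts. The untreated apoE-deficient arrays stood apart, and Atf3 fell by 1.44 (SE 0.19) in treated relative to untreated apoE-deficient hearts (limma, adjusted p = 0.000826) and was 1.31 ± 0.19 higher in untreated apoE-deficient than in B6 hearts (adjusted p = 0.0049). Trib1, a pseudokinase related to Trib3, read 62.1 and 44.3 in treated, 161 and 172 in untreated apoE-deficient and 82.0 and 59.4 in B6 hearts, with a difference of -1.48 ± 0.23 (adjusted p = 0.00209) and of 1.13 ± 0.23 for untreated apoE-deficient minus B6 hearts (adjusted p = 0.0219). The Trib1 call against B6 hearts held in 2 of 6 fits that left out 1 array, and the Atf3 call in 6 of 6.

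The lipoprotein receptor Vldlr was -0.63 ± 0.04 in treated minus untreated apoE-deficient hearts (limma, adjusted p = 1.1e-05). Amino acid transporters went different ways. Slc7a1, which carries cationic amino acids, read 460 and 490 in treated, 659 and 673 in untreated apoE-deficient and 950 and 1010 in B6 hearts, so each group was below the next, with -0.48 ± 0.07 between treated and untreated apoE-deficient hearts (adjusted p = 0.00189) and -1.03 ± 0.07 between treated and B6 hearts (adjusted p = 3.17e-05). Slc1a5, a glutamine carrier, read 278 and 233, 160 and 140, and 135 and 150 in the same order, a difference of 0.72 ± 0.15 between treated and untreated apoE-deficient hearts (adjusted p = 0.00882). Slc7a5 read 99.4 and 107, 84.6 and 123, and 44.2 and 32.5, with no call between treated and untreated apoE-deficient hearts and 1.21 ± 0.24 between untreated apoE-deficient and B6 hearts (adjusted p = 0.0221), called in 3 of 6 fits that left out 1 array. The proline synthesis gene Aldh18a1 rose by 0.70 ± 0.12 in treated relative to untreated apoE-deficient hearts (limma, adjusted p = 0.003). Nupr1 (0.87) and Kdm7a (0.68) were also called higher in that comparison. Nupr1 kept its call without the intensity trend and Kdm7a did not. Against B6 hearts Nupr1 was 0.87 higher in treated hearts and called.

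Of 19 cytosolic aminoacyl-tRNA synthetases, which charge tRNAs and are ATF4 targets, 1 was higher (Hars) and 2 lower (Kars and Tars) in treated than in untreated apoE-deficient hearts, median -0.11, against 23.7% of all genes called. The share of the list lay below that of all genes. Kars was -0.40 ± 0.06 (limma, adjusted p = 0.00143). With spike-in scaling the list median was 0.11, where the median of all probe sets was 0.18. Without the intensity trend limma called 0 of 19, with 4 at an unadjusted p under 0.05. None passed in untreated apoE-deficient against B6 hearts, where limma gave 6 at an unadjusted p under 0.05. Of 15 kinases and other upstream genes, 0 were higher and 3 lower (Gcn1, Dele1 and Eif2b4) in treated than in untreated apoE-deficient hearts, median -0.21, against 12.3% of all genes lower. With spike-in scaling the list median was 0.017 where that of all probe sets was 0.18, with 0 higher and 2 lower, and without the intensity trend 1 was lower. Eif2b4 was called in 0 of 6 fits that left out 1 array (limma). Gcn1, the activator of the GCN2 kinase, was -0.65 ± 0.10 (adjusted p = 0.00225). Impact, an inhibitor of that activation, was 0.64 ± 0.11 higher in untreated apoE-deficient than in B6 hearts (adjusted p = 0.0111).

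The endoplasmic reticulum arms of the stress response, XBP1 and ATF6, had more lower than higher genes. Of 23 genes 1 was higher (Sec61b) and 10 were lower in treated than in untreated apoE-deficient hearts, median -0.21, against 12.3% of all genes lower. The lower ones included Manf, a secreted protein of the reticulum, with 596 and 593 in treated, 1500 and 1450 in untreated apoE-deficient and 988 and 883 in B6 hearts. Manf arrays of the 3 groups did not overlap, and the untreated apoE-deficient ones were highest. Manf was -1.29 ± 0.07 in treated minus untreated apoE-deficient hearts (limma, adjusted p = 6.93e-06). Hspa5, the chaperone BiP, was -0.67 ± 0.04 (adjusted p = 1.2e-05), and Sdf2l1 was -1.43 ± 0.20 (adjusted p = 0.00112). Spike-in scaling gave 9 lower and 1 higher, and without the intensity trend 6 were lower and 0 higher. In untreated apoE-deficient against B6 hearts 4 of 23 were higher (Manf, Creld2, Hyou1 and Atf6) and 0 were lower, against 8.51% of all genes called. The higher count was 2, 2, 1 and 2 without untreated apoE-deficient replicate 1, untreated apoE-deficient replicate 2, B6 replicate 1 and B6 replicate 2. Without the intensity trend limma called 0 of 23, with 6 at an unadjusted p under 0.05. Hyou1 was called in 0 of 6 fits that left out 1 array (limma).

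The other folate one-carbon and glycine genes had few calls. Of 14 tested genes 2 were higher, Sfxn1 and Gcsh, and 0 lower in treated than in untreated apoE-deficient hearts, median 0.091, a count near the 11.4% higher among all genes. Sfxn1, the mitochondrial serine carrier, read 425 and 435 in treated, 224 and 193 in untreated apoE-deficient and 188 and 200 in B6 hearts. Treated arrays stood above the rest, with 1.01 ± 0.11 over untreated apoE-deficient hearts (limma, adjusted p = 0.0004). Of 12 genes of mitochondrial protein quality control, 0 were higher and 6 lower, median -0.16, against 12.3% of all genes lower, and without the intensity trend 2 were lower. Hspe1 was -0.54 ± 0.04 (adjusted p = 2.99e-05) and Spg7 -0.73 ± 0.07 (adjusted p = 0.000171), and spike-in scaling left 5 lower and 2 higher. The 4 tested FGF21 receptors and partners had 0 calls with limma in all 3 comparisons. At an unadjusted p under 0.05 limma gave 1 in treated minus untreated apoE-deficient hearts and 1 in treated minus B6 hearts.

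**Figure D4:**
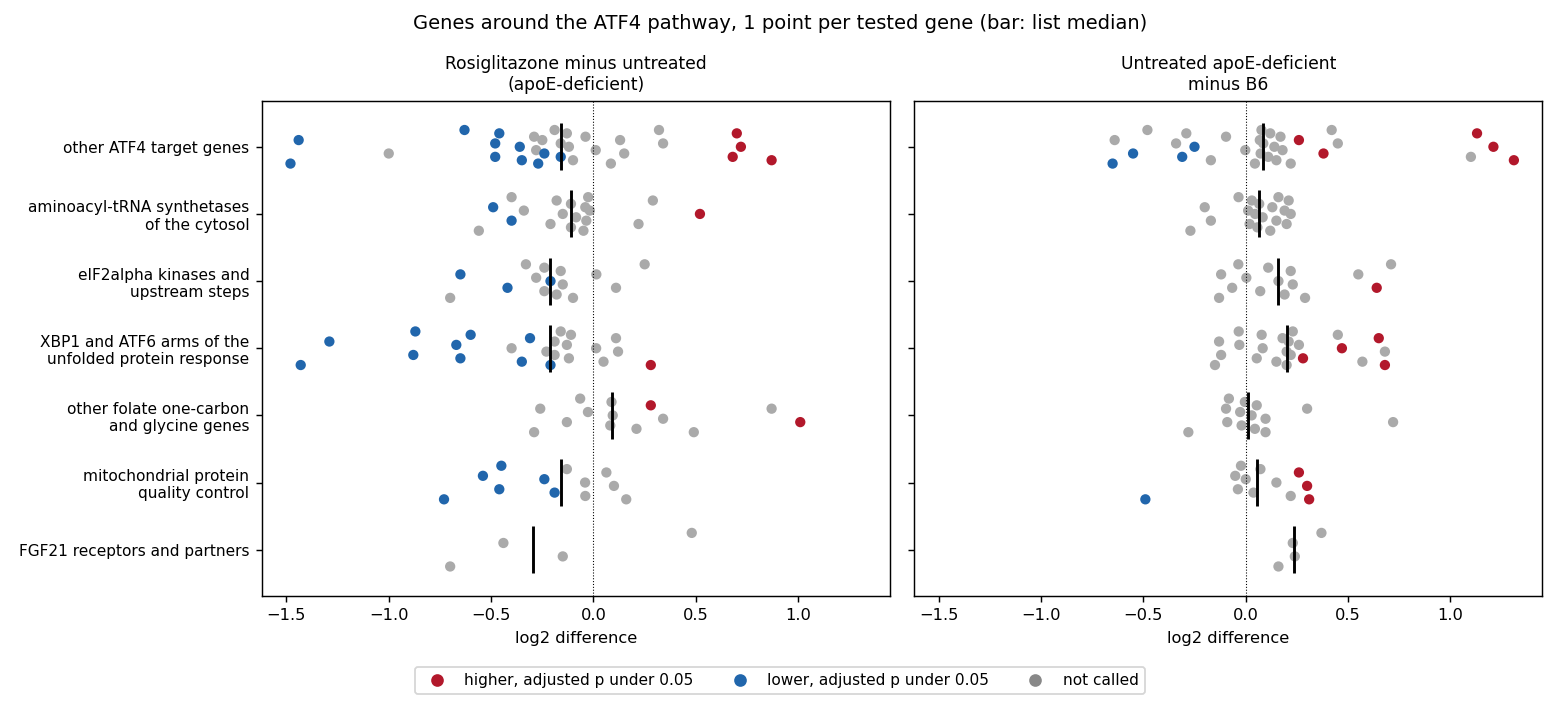
Log2 differences of the tested genes of each pathway list, with medians and called genes marked. The 2 panels are treated minus untreated apoE-deficient hearts and untreated apoE-deficient minus B6 hearts. In treated minus untreated apoE-deficient hearts the XBP1 and ATF6 list had 10 lower and 1 higher of 23, and the folate list 2 higher and 0 lower of 14.

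By distance of log2 levels centred on their own mean over the 6 arrays, 13227 other genes were ranked for Atf4, Chac1 and Asns, the 3 members whose brightest probe set had the smallest p in limma's moderated F test over the groups. Nearest to Atf4 were Krtcap2 at 0.022, Cd28 at 0.024 and Ccdc86 at 0.049 (root mean square), where the median gene lay at 0.34. Nearest to Chac1 were Celsr1 at 0.023, Itgb6 at 0.07 and Heatr5b at 0.07, with a median gene at 0.36. Nearest to Asns were Gimap4, Smim6 and Efnb1, each at 0.11, with a median gene at 0.47. Krtcap2 read 882 and 937 in treated, 1270 and 1390 in untreated apoE-deficient and 930 and 868 in B6 hearts. These are likenesses of 6 values and no more.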

How the data were processed

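Mouse heart RNA was measured on Affymetrix arrays, 3 groups of 2, grouped by the labels' titles. The authors deposited linear intensity values, 1 for each probe set on each array. The submitters' processing notes name GCOS, with settings not given in the sources used here. Arrays were found to differ in brightness by group. Detection calls stayed unused.

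From the deposited intensity values, 64 control probe sets were left out, and 45037 were quantile normalised, given a pseudocount of 11.1 (25th percentile) and taken to log2; the log2 step was made here from the deposited values. The 27022 probe sets with mean log2 above 4.99 (40th percentile) entered a limma model (version 3.58.1, R 4.3.3; lmFit, eBayes with intensity trend, all 6 arrays, 3 residual and 5.97 prior degrees of freedom), Benjamini-Hochberg adjusted p under 0.05. The array annotation, which can be old, gave 1 symbol to 34945 probe sets, several to 932 and none to 9160. Of those with 1 symbol, 34741 were matched by gene number to a RefSeq gene, whose symbol was used. A gene of a list stands by its brightest tested probe set. The array count limits precision.

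Named genes are all member probe sets, up to 4 genes of smallest p per list and any in a count of 5 or fewer, the 3 nearest genes to each of 3 members, and Apoe; cell type markers beyond these were named to describe their lists. The members and lists were chosen with earlier results of these data known. Promoters are from RefSeq, GRCm38.p6. The fit was tested on simulated data. Alternatives were other scalings, pseudocounts of 1 and 50, no filter, no trend, only the groups compared, the replicate number as a block, the mean probe set of a gene, and leaving out each array.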

Additional observations from a re-analysis of the deposited data

How the results depend on the processing

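Of the 20 tested member probe sets, 11 in treated minus untreated apoE-deficient hearts turned sign with unscaled signals and were called in at least 1 of the settings, where the median of all probe sets was 1.13: Atf4 1448135_at 0.61, Ddit3 1417516_at 0.67, Chac1 0.88, Trib3 0.92 and 0.75, Mthfd2 1419253_at 0.97, Phgdh 1426658_x_at 1.11, and Shmt2 0.87, 0.89, 1.0 and 0.57. In treated minus B6 hearts the unscaled values that turned were Chac1 0.21, Ddit3 0.73 and Shmt2 0.62, 0.88 and 0.7, and with spike-in scaling Shmt2 1455084_x_at was 0.32. The share of higher calls under spike-in scaling, unscaled signals and array medians centred was 79.6%, 99.9% and 64.7% for treated minus untreated apoE-deficient (quantile 50.5%), 81%, 4.72% and 25.7% for untreated apoE-deficient minus B6 (quantile 44.8%), and 92.5%, 99.7% and 45.8% for treated minus B6 (quantile 49.6%).

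Counts of called member probe sets in treated minus untreated apoE-deficient hearts (7) were 3 with spike-in scaling, 4 with array medians centred, 19 unscaled and 2 without the intensity trend. In untreated apoE-deficient minus B6 hearts (1) they were 2 with trimmed-mean scaling, 3 spike-in and 2 with medians centred, and limma gave 0 unscaled and 0 without the trend, where 4 and 3 had an unadjusted p under 0.05. In treated minus B6 hearts (3) they were 5 spike-in, 15 unscaled and 1 without the trend. All probe sets called were 22755 unscaled and 1653 without the trend for treated minus untreated apoE-deficient, 3045 spike-in and 10 without the trend for untreated apoE-deficient minus B6, and 7614 spike-in, 18758 unscaled and 626 without the trend for treated minus B6. Listed genes called (40, 18 and 29) were 104 unscaled and 15 without the trend; 33 spike-in, 5 unscaled, 0 without the trend (26 at an unadjusted p under 0.05, limma) and 9 with the mean probe set; and 50 spike-in, 94 unscaled and 3 without the trend. Leaving out 1 array gave 1 to 7, 1 to 1 and 2 to 3 called member probe sets, 2935 to 5014, 619 to 1750 and 2202 to 4105 of all, and 31 to 41, 6 to 18 and 19 to 26 listed genes. The lone array left in a group is assumed to vary like the others. For untreated apoE-deficient minus B6 hearts, the 4 fits that left out an array of those groups gave 10, 6, 7 and 6 listed genes.

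The replicate number as a block changed 1 member call, Chac1 in treated minus untreated apoE-deficient hearts (adjusted p = 0.0544 with limma), leaving 6, 1 and 3 members, 5344, 1937 and 4103 of all and 42, 19 and 30 listed genes. Deviations of same-numbered arrays correlated at -0.00631, 0.0196 and 0.0329, so the numbers are not shown to pair arrays. Treatment, the label of failing hearts, markers of other tissues and array brightness moved together in the treated group, and their shares cannot be told apart. With 2 arrays a group, a missing call does not show that a gene was the same. Fgf21 lay below the filter and was not tested.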
